A study of Mus musculus with 8 samples.

Results

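Expression of the tumor necrosis factor (TNF) receptor superfamily was described in 3 populations of embryonic thymic epithelial cells (TECs). The 10 receptor genes were *Tnfrsf11a* (which encodes RANK), *Tnfrsf11b* (osteoprotegerin), *Cd40*, *Ltbr* (lymphotoxin beta receptor), *Tnfrsf1a*, *Tnfrsf1b*, *Tnfrsf12a*, *Tnfrsf19*, *Fas*, and *Ngfr*. They were picked by symbol from the 55450 genes of the table, and all 10 passed the expression filter that left 21451 genes for testing. CD45-EpCAM+ TECs were sorted at E17, 17 days into gestation, from embryos that carried both a tdTomato reporter knocked into one allele of the chemokine gene *Ccl21a* and a RANK-Venus transgene that reports *Tnfrsf11a*. The groups were CCL21+RANK- TECs (tdTomato+Venus-, 3 libraries), CCL21-RANK+ TECs (tdTomato-Venus+, 3 libraries), and CCL21-RANK- TECs (tdTomato-Venus-, 2 libraries). All groups came from the same reporter background, no wild-type library was compared, and cells positive for both reporters were not analysed here. The labels do not say whether replicate libraries came from separate litters or embryos, so the p-values measure the spread between these libraries. Each library held between 42751858 and 71625319 counts.

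TNF receptors are membrane proteins that bind trimeric ligands of the TNF family and signal through adaptors inside the cell. One branch, which includes RANK, CD40, and the lymphotoxin beta receptor, recruits TRAF proteins and activates NF-kB through both the classical and the alternative pathway, in which NIK releases p52-RelB. Another branch carries a death domain and can recruit caspase-8, as TNF receptor 1 and FAS do. In the thymus, RANK, CD40, and the lymphotoxin beta receptor are known for their part in the development of medullary TECs (mTECs), and their ligands come in large part from hematopoietic cells. Osteoprotegerin is a soluble receptor that captures the RANK ligand.

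The labelled populations were first compared with marker genes. The epithelial genes *Epcam*, *Cdh1*, *Krt8*, *Krt18*, and *Foxn1* were detected in all 8 libraries. Their summed level was 1400, 1360, and 1220 RPKM (counts scaled to the exon length in kilobases and to the library total) for CCL21-RANK+ TECs and between 3610 and 4350 RPKM in the other libraries. *Krt8*, *Krt18*, and *Foxn1* were lower in CCL21-RANK+ TECs than in each of the other groups and *Epcam* was higher, each with an edgeR adjusted p-value below 0.05 and a fold change above 1.5, and the part of these differences in the receptor levels was not tested. *Ccl21a* was at 561, 346, and 305 RPKM in CCL21+RANK- TECs, 152, 95.9, and 78.2 RPKM for CCL21-RANK+ TECs, against 6.89 and 8.88 RPKM in CCL21-RANK- TECs. *Tnfrsf11a* was at 8.78, 9.44, and 10.3 RPKM in CCL21+RANK- TECs, 111, 93.1, and 107 RPKM for CCL21-RANK+ TECs, against 2.62 and 2.26 RPKM in CCL21-RANK- TECs. Both genes were highest in the population sorted for their reporter, although *Ccl21a* shares reads with near-identical copies, which makes its level uncertain. Because *Tnfrsf11a* is the gene that the Venus reporter follows, its level in CCL21-RANK+ TECs is a check of the sort and not a result, and the receptors were counted with and without it. The mTEC gene *Aire*, a transcriptional regulator of self-antigen expression, was between 94.1 and 131 RPKM in CCL21-RANK+ TECs and at most 0.81 RPKM in every other library. *Fezf2* and *Cd80* were also highest in CCL21-RANK+ TECs. Other mTEC genes did not, as *Krt5* was at 1050, 942, and 871 RPKM in CCL21+RANK- TECs, 375, 561, and 368 RPKM for CCL21-RANK+ TECs, against 158 and 122 RPKM in CCL21-RANK- TECs. *Krt14* overlapped between CCL21+RANK- and CCL21-RANK+ TECs. With *Ccl21a* included, the 6 mTEC genes summed to 1670, 1340, and 1220 RPKM, 851, 896, and 696 RPKM, and 175 and 139 RPKM in the same order of groups. The 6 cortical TEC genes *Psmb11*, *Prss16*, *Ly75*, *Cxcl12*, *Dll4*, and *Enpep* summed to between 1440 and 1670 RPKM in CCL21+RANK- TECs, between 102 and 167 RPKM in CCL21-RANK+ TECs, and to 1500 and 1580 RPKM in CCL21-RANK- TECs. The RANK- populations overlapped in this sum but not in each gene, as *Dll4* was at 58.5, 71.6, and 90.2 RPKM in CCL21+RANK- TECs against 110 and 119 RPKM in CCL21-RANK- TECs (edgeR adjusted p = 0.0239).

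Markers of other cell types also differed between the groups. The parathyroid genes *Pth*, *Gcm2*, *Casr*, and *Chga* summed to 7120, 1750, and 1960 RPKM in CCL21+RANK- TECs and to at most 24.9 RPKM in the others, with *Chga* the most abundant and none of the 4 genes at 0 in any library. CCL21+RANK- #1 stood apart from the other libraries in this signal. The mesenchymal genes *Pdgfra*, *Pdgfrb*, *Col1a1*, *Dcn*, and *Lum* summed to 47.9, 24.2, and 30.5 RPKM in CCL21-RANK+ TECs and to at most 2.26 RPKM elsewhere, with *Col1a1* the most abundant. *Pdgfra* went the other way, at 0.262, 0.171, and 0.154 RPKM in CCL21+RANK- TECs against 0.122, 0.0517, and 0.0303 RPKM in CCL21-RANK+ TECs. The 11 immune genes summed to 22.8, 9.34, and 16.9 RPKM in CCL21-RANK+ TECs, 10.5, 4.12, and 5.95 RPKM for CCL21+RANK- TECs, against 3.28 and 2.86 RPKM in CCL21-RANK- TECs. The most abundant immune gene was *Rag1*, and *Ptprc*, which encodes the CD45 used to exclude blood cells, was at most 0.576 RPKM. The 4 endothelial genes summed to at most 2.03 RPKM. In bulk RNA, fewer cells of a type and less RNA per cell cannot be told apart.

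Sequence before the transcription start was compared for the receptors with an entry in the RefSeq promoter table of GRCm38.p6, which held 8 of the 10 genes in 9 entries. *Cd40* and *Tnfrsf11b* had none. The 100 bases upstream of the RefSeq start of *Tnfrsf11a*, the receptor with the highest level in CCL21-RANK+ TECs, are shown beside those of *Ltbr* and *Tnfrsf1a*, which were lower there. They are written 5′ to 3′ on the strand of the gene, and capitals mark CG dinucleotides. The windows are chr1:105780623-105780722 (plus strand) for *Tnfrsf11a*, chr6:125313886-125313985 (minus strand) for *Ltbr*, and chr6:125349623-125349722 (plus strand) for *Tnfrsf1a*. Starts in this table can differ from those of the GENCODE genes whose positions are given with each receptor, and the *Tnfrsf1a* window lies inside the GENCODE gene, which starts at 125349362.
Tnfrsf11a: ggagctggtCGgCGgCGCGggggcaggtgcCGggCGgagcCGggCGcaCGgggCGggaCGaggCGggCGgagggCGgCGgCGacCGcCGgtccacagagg
Ltbr: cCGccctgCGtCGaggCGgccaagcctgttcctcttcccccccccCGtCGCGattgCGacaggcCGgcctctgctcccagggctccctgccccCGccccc
Tnfrsf1a: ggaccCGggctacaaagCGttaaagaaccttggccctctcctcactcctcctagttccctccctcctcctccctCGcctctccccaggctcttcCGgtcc

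The *Tnfrsf11a* window held 18 CG dinucleotides at 85% G and C, the *Ltbr* window 10 at 77%, and the *Tnfrsf1a* window 4 at 63%. Over the full promoter entry, from 250 bases before to 50 bases after the start, *Tnfrsf11a* held 43 CG dinucleotides against a median of 7 over the 32851 promoters of the table. Every other receptor entry was also above that median, with 23 in *Ltbr* and in *Ngfr*, 14 in *Fas*, 13 in *Tnfrsf1b*, and 11 in *Tnfrsf1a*. None of the 9 receptor entries held the NF-kB consensus motif on either strand, which 8.46% of all promoters held. The AP-1 motif TGANTCA was found in 7.81% of all promoters and, among the receptors, only in *Fas*, at positions -211 to -205 from the start. It is shown in capitals within its surroundings at chr19:34290423-34290479 (plus strand).
Fas: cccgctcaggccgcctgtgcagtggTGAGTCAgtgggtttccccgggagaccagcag

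A match describes letters in this window only, and no binding was measured.

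Most of the receptors, the sorted gene *Tnfrsf11a* among them, separated CCL21-RANK+ TECs from both other populations, as the plot of levels by library shows. The share of all tested genes that did so was not computed, so no conclusion about the receptor family is drawn from this separation. *Tnfrsf11b*, *Cd40*, *Tnfrsf1b*, and *Fas* were highest in CCL21-RANK+ TECs, together with the sorted gene *Tnfrsf11a*, and *Ltbr*, *Tnfrsf1a*, and *Ngfr* were lowest there. *Tnfrsf19* was highest in CCL21-RANK- TECs. A gene was called when its adjusted p-value in edgeR was below 0.05, its fold change above 1.5, and its mean RPKM above 1 in the higher group.

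**Figure D1:**
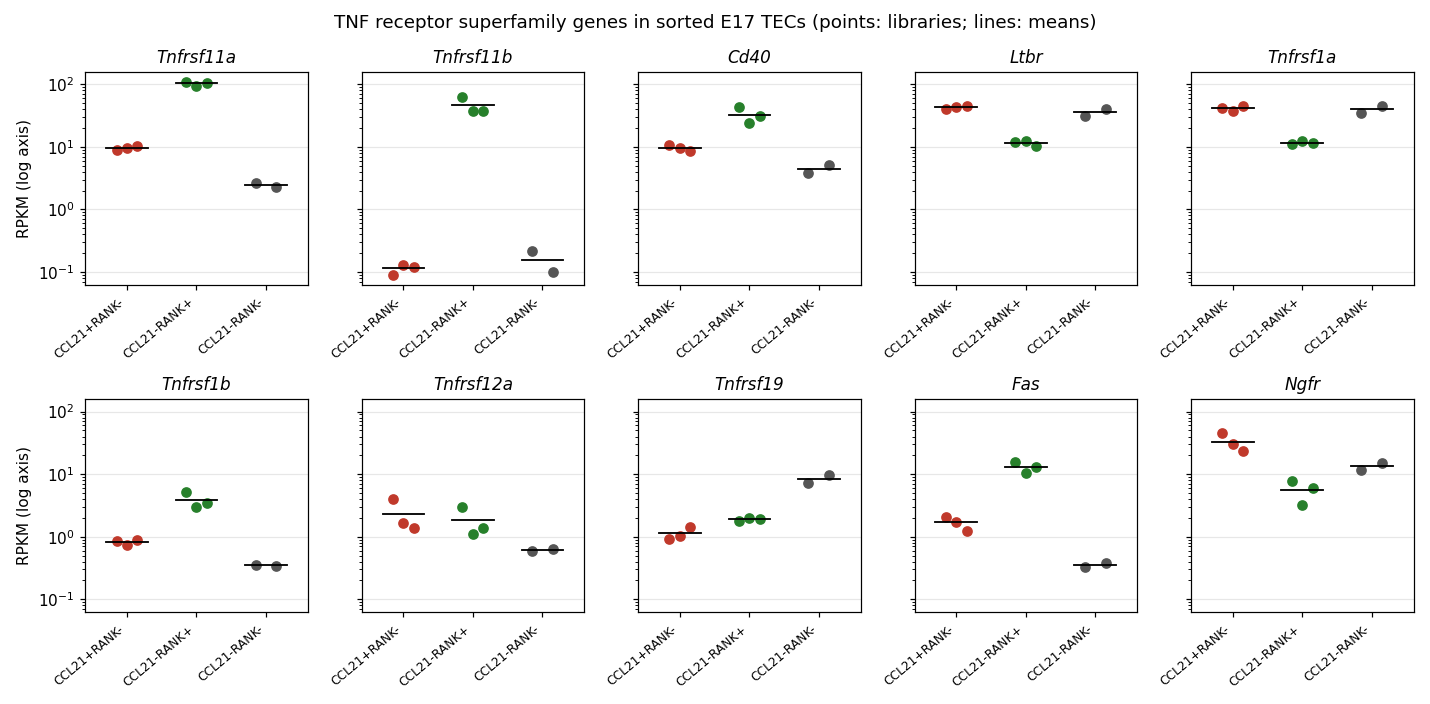
RPKM of the 10 receptor genes on a log axis, with a point for each library and a line at the mean of each sorted group (CCL21+RANK-, red; CCL21-RANK+, green; CCL21-RANK-, grey). *Tnfrsf11b* lies between 37.7 and 62.2 RPKM in the CCL21-RANK+ group and at or below 0.216 RPKM in all others, whereas the points of *Tnfrsf12a* overlap between CCL21+RANK- and CCL21-RANK+ TECs.

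With CCL21-RANK+ TECs set against CCL21+RANK- TECs, 9 of the 10 receptors were called, 6 higher and 3 lower in CCL21-RANK+ TECs. Without *Tnfrsf11a* there were 8 of 9. Over all tested genes, 30.9% were called in this comparison, 15.4% higher and 15.4% lower. Among the genes above 1 RPKM in the higher group, as all 10 receptors were, the share was 48.9%. The median log2 fold change was 1.14 over the 10 receptors and 0.66 without *Tnfrsf11a*, beside 0.11 over all tested genes. With CCL21-RANK+ TECs set against CCL21-RANK- TECs, 9 of the 10 were called, 5 higher and 4 lower, and 8 of 9 without *Tnfrsf11a*. Of all tested genes 29.5% were called there, 14.4% higher and 15.1% lower, and 47% of those above 1 RPKM. With CCL21+RANK- TECs set against CCL21-RANK- TECs, 5 of the 10 were called, 4 higher and 1 lower, and 4 of 9 without *Tnfrsf11a*. In that comparison 8.02% of all tested genes were called, 4.35% higher and 3.66% lower, and 14.3% of those above 1 RPKM, as 8 of the receptors were. This count and the count over all tested genes were both lower when either CCL21-RANK- library was left out. Such fits had 1 library in that group, so the spread came from the other groups. Without CCL21+RANK- #1, the library with the most parathyroid signal, the counts were 8, 10, and 4 in the same order. The 3 comparisons share libraries, so their counts do not support each other.

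**Figure D2:**
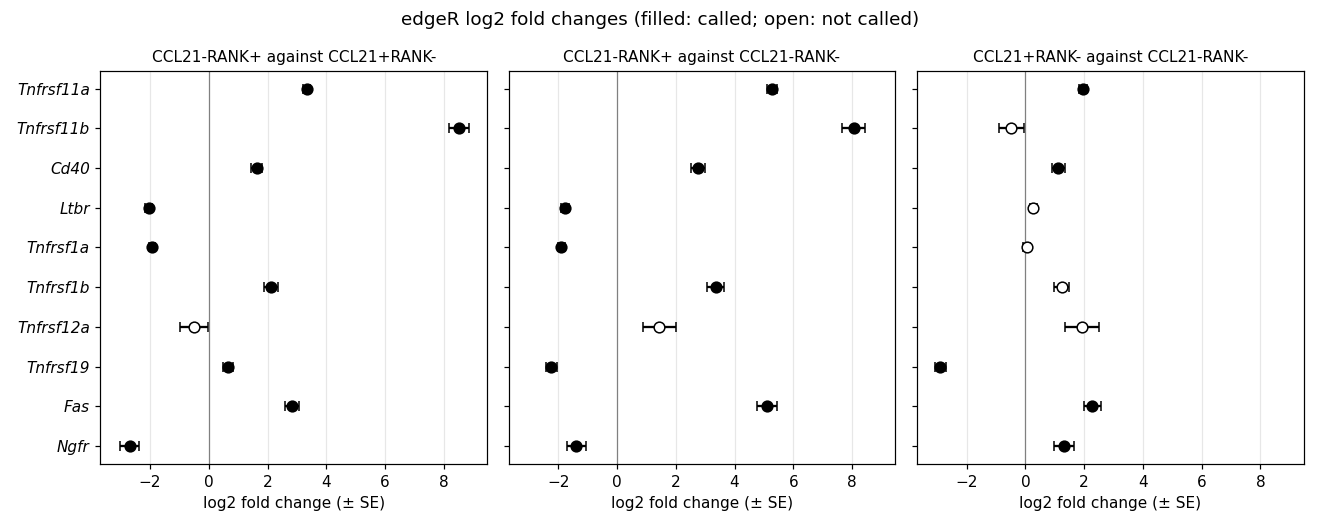
Log2 fold change (points) with its standard error (bars) of the 10 receptor genes in 3 comparisons of sorted TEC populations, from edgeR; filled points are called and open points are not. *Tnfrsf11b* has the largest change in the panels with CCL21-RANK+ TECs, and *Ltbr* and *Tnfrsf1a* sit below 0 in both and near 0 in the panel without them.

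*Tnfrsf11a* (chr1:105780718-105847981, plus strand, GRCm38) encodes the receptor for RANK ligand. It was 3.33 ± 0.13 (log2 fold change ± SE) higher in CCL21-RANK+ TECs than in CCL21+RANK- TECs. Although neither group carried Venus, it was also 1.96 ± 0.14 higher in CCL21+RANK- TECs than in CCL21-RANK- TECs (adjusted p = 8.7e-05), where every CCL21+RANK- library lay above both CCL21-RANK- libraries. The former difference describes the sort, whereas the latter lies between groups that were both sorted as Venus-.

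*Tnfrsf11b* (chr15:54250619-54278484, minus strand) encodes the decoy receptor osteoprotegerin, which keeps RANK ligand from RANK. Its level was 62.2, 38, and 37.7 RPKM in CCL21-RANK+ TECs, 0.0892, 0.131, and 0.122 RPKM for CCL21+RANK- TECs, against 0.216 and 0.0991 RPKM in CCL21-RANK- TECs. All 3 CCL21-RANK+ libraries lay far above the rest, and the other groups overlapped. The log2 fold change was 8.53 ± 0.34 against CCL21+RANK- TECs (adjusted p = 2.25e-07) and 8.05 ± 0.39 against CCL21-RANK- TECs (adjusted p = 6.34e-07). Between CCL21+RANK- and CCL21-RANK- TECs it was -0.48 ± 0.43 (adjusted p = 0.548), on 15 to 41 counts a library. The mesenchymal markers, of which all but *Pdgfra* were also highest in CCL21-RANK+ TECs, summed to 47.9, 24.2, and 30.5 RPKM in those libraries. Their part in the *Tnfrsf11b* level was not tested. The ratio of *Tnfrsf11a* to *Tnfrsf11b* RPKM was 1.78, 2.45, and 2.84 in CCL21-RANK+ TECs, between 72 and 98.4 in CCL21+RANK- TECs, and 12.2 and 22.8 in CCL21-RANK- TECs. The receptor gene and the gene of its decoy thus came closest in level in the CCL21-RANK+ libraries.

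*Cd40* (chr2:165055627-165072948, plus strand) encodes the receptor for CD40 ligand, which activated T cells carry. It was at 43, 23.7, and 31 RPKM in CCL21-RANK+ TECs, 10.7, 9.55, and 8.45 RPKM for CCL21+RANK- TECs, against 3.84 and 5.05 RPKM in CCL21-RANK- TECs. No library of one group overlapped another group. *Cd40* was higher in CCL21-RANK+ TECs than in CCL21+RANK- TECs by 1.63 ± 0.19 (adjusted p = 7.6e-05) and than in CCL21-RANK- TECs by 2.75 ± 0.23 (adjusted p = 1.15e-05). It was also higher in CCL21+RANK- TECs than in CCL21-RANK- TECs by 1.12 ± 0.22 (adjusted p = 0.0099). The last call was lost without CCL21-RANK- #1 (log2 fold change 1) and without CCL21-RANK- #2 (log2 fold change 1.25). Each of these fits left 1 library in that group, so the spread came from the other groups. The part of immune cells, whose markers had their highest mean sum in CCL21-RANK+ TECs, in the *Cd40* level was not tested.

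*Ltbr* (chr6:125306571-125313885, minus strand), the receptor for membrane lymphotoxin and LIGHT, had the opposite pattern. It was at 40.6, 44.2, and 45.2 RPKM in CCL21+RANK- TECs, 31.4 and 41.1 RPKM for CCL21-RANK- TECs, against 11.8, 12.3, and 10.4 RPKM in CCL21-RANK+ TECs. These RANK- populations overlapped, and the 3 CCL21-RANK+ libraries lay below them. *Ltbr* was lower in CCL21-RANK+ TECs by a log2 fold change of -2.04 ± 0.12 against CCL21+RANK- TECs (adjusted p = 1.36e-06) and -1.77 ± 0.13 against CCL21-RANK- TECs (adjusted p = 4.74e-06). Between the RANK- groups it was 0.27 ± 0.13 (adjusted p = 0.235).

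*Tnfrsf1a* (chr6:125349362-125362484, plus strand) encodes the death-domain receptor TNFR1, which binds TNF. It neighbors *Ltbr* on the chromosome, with 35476 bases between the genes. Its level was 42.2, 37.3, and 44.4 RPKM in CCL21+RANK- TECs, 35.1 and 45.7 RPKM for CCL21-RANK- TECs, against 11, 12.4, and 11.5 RPKM in CCL21-RANK+ TECs. As with *Ltbr*, the RANK- groups overlapped and the CCL21-RANK+ libraries lay below both. The log2 fold change was -1.94 ± 0.11 against CCL21+RANK- TECs (adjusted p = 1.29e-06) and -1.90 ± 0.12 against CCL21-RANK- TECs (adjusted p = 2.3e-06). It was 0.04 ± 0.12 between the RANK- groups (adjusted p = 0.919). The level of *Tnfrsf1a* was above that of *Ltbr* in both CCL21-RANK- libraries, whereas in the other groups their order differed between libraries.

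*Tnfrsf1b* (chr4:145213463-145246870, minus strand) encodes TNFR2, a TNF receptor without a death domain. It was at 5.23, 3.03, and 3.5 RPKM in CCL21-RANK+ TECs, 0.86, 0.723, and 0.889 RPKM for CCL21+RANK- TECs, against 0.357 and 0.344 RPKM in CCL21-RANK- TECs. The groups did not overlap, and the direction was opposite to that of *Tnfrsf1a* in the comparisons with CCL21-RANK+ TECs. The log2 fold change was 2.12 ± 0.23 against CCL21+RANK- TECs (adjusted p = 4.07e-05) and 3.35 ± 0.28 against CCL21-RANK- TECs (adjusted p = 1.12e-05). Between the RANK- groups it was 1.23 ± 0.26 (adjusted p = 0.0153), which was not called because both means were under 1 RPKM.

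*Fas* (chr19:34290666-34327772, plus strand) encodes the death receptor for FAS ligand. It was at 15.9, 10.5, and 13.1 RPKM in CCL21-RANK+ TECs, 2.1, 1.73, and 1.24 RPKM for CCL21+RANK- TECs, against 0.324 and 0.379 RPKM in CCL21-RANK- TECs. All 3 groups were apart. *Fas* was higher in CCL21-RANK+ TECs than in CCL21+RANK- TECs by 2.82 ± 0.24 (adjusted p = 9.94e-06), and in CCL21+RANK- TECs than in CCL21-RANK- TECs by 2.28 ± 0.29 (adjusted p = 0.00137). Between CCL21-RANK+ and CCL21-RANK- TECs the log2 fold change was 5.10 ± 0.33 (adjusted p = 2.33e-06). The members with a death domain thus split, with *Fas* highest and *Tnfrsf1a* and *Ngfr* lowest in CCL21-RANK+ TECs.

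*Ngfr* (chr11:95568818-95587735, minus strand) encodes the p75 neurotrophin receptor. It was at 45.3, 30.2, and 23.4 RPKM in CCL21+RANK- TECs, 11.8 and 15.3 RPKM for CCL21-RANK- TECs, against 7.66, 3.17, and 6.04 RPKM in CCL21-RANK+ TECs. The groups did not overlap, although the CCL21+RANK- libraries were spread widely and the highest was CCL21+RANK- #1. *Ngfr* was lower in CCL21-RANK+ TECs than in CCL21+RANK- TECs, with a log2 fold change of -2.70 ± 0.32 (adjusted p = 8.52e-05), and than in CCL21-RANK- TECs, with -1.39 ± 0.33 (adjusted p = 0.00684). It was higher in CCL21+RANK- TECs than in CCL21-RANK- TECs by 1.31 ± 0.35 (adjusted p = 0.0407). That call was lost without CCL21+RANK- #1 (log2 fold change 1.02, adjusted p = 0.101), CCL21+RANK- #2 (1.33, adjusted p = 0.0923), or CCL21-RANK+ #3 (1.31, adjusted p = 0.0682). It was also lost without CCL21-RANK- #1 (1.19) or CCL21-RANK- #2 (1.42). These last fits left 1 library in the CCL21-RANK- group, so the spread came from the other groups. The parathyroid markers were also highest in CCL21+RANK- #1, and their part in the *Ngfr* level was not tested. *Sox10* and *Foxd3* mark neural crest cells, which also carry p75. *Sox10* was at 0, 0, and 0.00595 RPKM in CCL21+RANK- TECs, 0.204 and 0.178 RPKM for CCL21-RANK- TECs, against 1.16, 1.01, and 0.851 RPKM in CCL21-RANK+ TECs. *Foxd3* was at most 0.0937 RPKM in CCL21+RANK- TECs. The part of such cells in the *Ngfr* level was not tested.

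*Tnfrsf19* (chr14:60963875-61046490, minus strand) encodes TROY, a receptor known from epithelial progenitors and the nervous system. It was at 7.16 and 9.67 RPKM in CCL21-RANK- TECs, 0.923, 1.04, and 1.42 RPKM for CCL21+RANK- TECs, against 1.79, 2.01, and 1.95 RPKM in CCL21-RANK+ TECs. It was the only one of the 10 receptors with its highest mean RPKM in CCL21-RANK- TECs, and the groups did not overlap. The log2 fold change was -2.90 ± 0.19 in CCL21+RANK- against CCL21-RANK- TECs (adjusted p = 6.43e-05) and -2.24 ± 0.19 in CCL21-RANK+ against CCL21-RANK- TECs (adjusted p = 1.06e-05). It was 0.66 ± 0.17 in CCL21-RANK+ against CCL21+RANK- TECs (adjusted p = 0.00907). Without CCL21+RANK- #1 that value was 0.54, which is under the fold threshold.

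*Tnfrsf12a* (chr17:23675445-23677468, minus strand) encodes FN14, the receptor for TWEAK. It was at 3.96, 1.63, and 1.4 RPKM in CCL21+RANK- TECs, 3.01, 1.09, and 1.38 RPKM for CCL21-RANK+ TECs, against 0.591 and 0.629 RPKM in CCL21-RANK- TECs. The groups sorted for one reporter overlapped, with replicate #1 highest in each, and the CCL21-RANK- libraries lay below both. In CCL21-RANK+ against CCL21+RANK- TECs the log2 fold change was -0.50 ± 0.48 (adjusted p = 0.41), and it turned to 0.12 without CCL21+RANK- #1. Against CCL21-RANK- TECs it was 1.94 ± 0.58 in CCL21+RANK- TECs (adjusted p = 0.0601) and 1.44 ± 0.57 in CCL21-RANK+ TECs (adjusted p = 0.0592), neither of which was called. Under other settings both values crossed the threshold, as under DESeq2 (adjusted p = 0.00589 and 0.0152).

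The make-up of the receptor transcripts differed between the populations. Of the summed RPKM of the 10 receptors, *Tnfrsf11a* took a mean of 45.1%, *Tnfrsf11b* 19.6%, and *Cd40* 13.8% in CCL21-RANK+ TECs. In CCL21+RANK- TECs, *Ltbr* took 30.6%, *Tnfrsf1a* 29%, and *Ngfr* 22.8%. In CCL21-RANK- TECs, *Tnfrsf1a* took 37.7%, *Ltbr* 33.9%, *Ngfr* 12.6%, and *Tnfrsf19* 7.85%. *Ltbr*, *Tnfrsf1a*, and *Ngfr* thus led in both RANK- populations, and the shares of *Ngfr* and *Tnfrsf19* did not overlap between them. Of the sum without the sorted gene *Tnfrsf11a*, *Tnfrsf11b* took 38.5%, 35.8%, and 32.4% in CCL21-RANK+ TECs. *Cd40* took 26.6%, 22.3%, and 26.6% of that sum. The sum of the 10 was 272, 199, and 224 RPKM in CCL21-RANK+ TECs, 156, 136, and 137 RPKM for CCL21+RANK- TECs, against 93.3 and 120 RPKM in CCL21-RANK- TECs. Without the sorted gene *Tnfrsf11a*, it was 162, 106, and 117 RPKM, 147, 126, and 127 RPKM, and 90.7 and 118 RPKM in the same order of groups. The CCL21-RANK+ libraries then overlapped both other groups, and every CCL21+RANK- library lay above both CCL21-RANK- libraries.

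**Figure D3:**
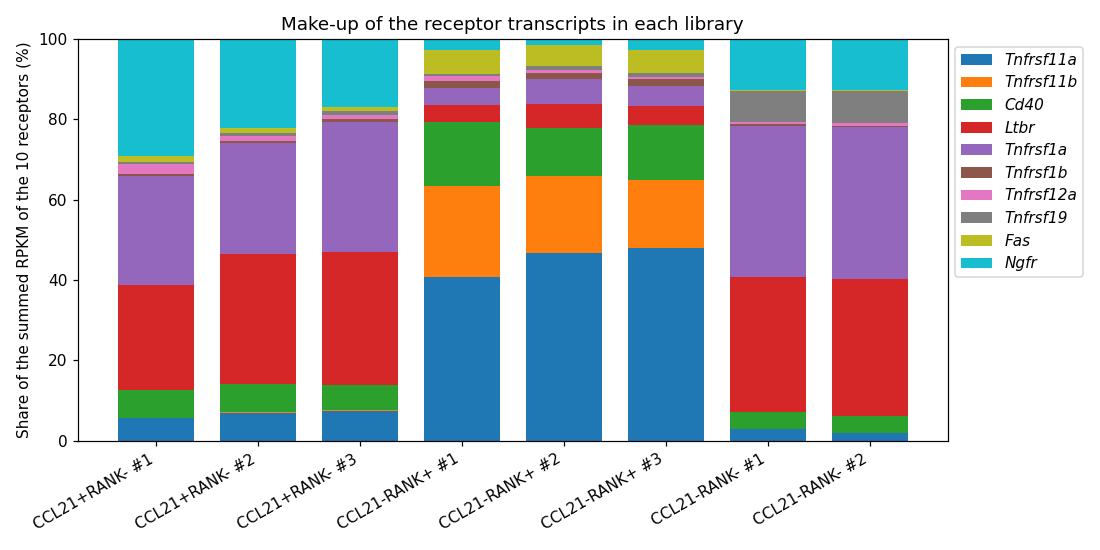
Share of the summed RPKM of the 10 receptor genes (percent, stacked bars) taken by each gene in each of the 8 libraries. *Tnfrsf11a* and *Tnfrsf11b* fill most of the bars of CCL21-RANK+ TECs, and *Ltbr*, *Tnfrsf1a*, and *Ngfr* most of the bars of the other populations, with *Tnfrsf19* visible in CCL21-RANK- TECs.

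Over the 8 libraries, receptors of like pattern were described by the Pearson correlation of log2 CPM (counts scaled to the library size). The libraries fall into 3 sorted groups, so a high value mainly repeats the order of the groups. *Cd40* and *Fas* had r = 0.993, *Tnfrsf11a* and *Tnfrsf1b* r = 0.992, and *Ltbr* and *Tnfrsf1a* r = 0.99. The most opposed pair was *Tnfrsf11b* and *Tnfrsf1a*, with r = -0.998. Of the 8030 genes with a mean of at least 5 RPKM in a group, those nearest to *Tnfrsf11a* were *Cdhr1* (r = 0.9988), *Acacb* (r = 0.9982), and *Bspry* (r = 0.9975). Those nearest to *Cd40* were *Chrng* (r = 0.9956), *Sp6* (r = 0.9948), and *Dapp1* (r = 0.9947), and those nearest to *Ltbr* were *Gas6* (r = 0.9986), *2010300C02Rik* (r = 0.9979), and *Psmb9* (r = 0.9968). Among these, *Psmb9* encodes an immunoproteasome subunit and *Gas6* a ligand of TAM receptor kinases.

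The rest of the superfamily was taken from a list of 18 other receptors, of which 16 were tested. Between CCL21-RANK+ and CCL21+RANK- TECs, 9 were higher and 3 lower in CCL21-RANK+ TECs, with a median log2 fold change of 1.44 (30.9% of all tested genes called, median 0.11). Against CCL21-RANK- TECs, 9 were higher and 4 lower in CCL21-RANK+ TECs, with a median of 2.09 (29.5% of all tested genes called). Between the RANK- groups, 2 were higher and 1 lower in CCL21+RANK- TECs, with a median of 0.57 (8.02% of all tested genes called). *Tnfrsf25* and *Tnfrsf26* did not pass the expression filter. *Tnfrsf4*, *Tnfrsf9*, and *Tnfrsf17* passed it through CCL21-RANK+ TECs, as they had at most 8, 9, and 14 counts in each library elsewhere. Such genes raise the medians and add to the calls in the comparisons with CCL21-RANK+ TECs, so no conclusion is drawn from these medians or counts. With at least 10 counts required in every library, 7 receptors of the list were called in each of these comparisons.

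Against CCL21+RANK- TECs, the largest rise in this list was that of *Tnfrsf8*, which encodes CD30, a costimulatory receptor known from activated lymphocytes. It was at 26.3, 30.9, and 30.9 RPKM in CCL21-RANK+ TECs, 0.189, 0.088, and 0.0367 RPKM for CCL21+RANK- TECs, against 0.33 and 0.0283 RPKM in CCL21-RANK- TECs. The CCL21-RANK+ libraries were far above all others, by 7.98 ± 0.69 (log2, adjusted p = 1.07e-05) against CCL21+RANK- TECs. *Tnfrsf9* (4-1BB) had a log2 fold change of 7.70 ± 0.63, from at most 0.06 RPKM to 12.1, 5.27, and 6.85 RPKM. *Relt* was at 21, 11.1, and 15.5 RPKM in CCL21-RANK+ TECs against 2.22, 1.7, and 1.45 RPKM in CCL21+RANK- TECs. *Tnfrsf21* (death receptor 6) was at 20.7, 16.1, and 19.2 RPKM against 6.59, 3.09, and 4.75 RPKM, and *Tnfrsf10b* (the TRAIL receptor of the mouse) at 15.1, 13.3, and 15.7 RPKM against 7.89, 6.21, and 7.73 RPKM. All 3 of these were called, and in none did the groups overlap. *Tnfrsf13c* (the BAFF receptor) was also called, with a rise in CCL21-RANK+ TECs on the log2 scale of 4.66. *Tnfrsf4* (OX40) and *Tnfrsf17* (BCMA) had values of 5.28 and 2.71. Like *Tnfrsf9*, they passed the expression filter through CCL21-RANK+ TECs, so no conclusion is drawn from the calls of these genes. The mean sum of the immune markers was also highest in CCL21-RANK+ TECs, and their part in the levels of *Tnfrsf8* and the other receptors known from lymphocytes was not tested.

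Of the receptors of this list that were lower in CCL21-RANK+ TECs, *Tnfrsf14* (HVEM, a receptor for LIGHT and BTLA) was the most abundant. It was at 26.1, 23.2, and 28.5 RPKM in CCL21+RANK- TECs, 14.8 and 15.4 RPKM for CCL21-RANK- TECs, against 8.58, 8.76, and 8.64 RPKM in CCL21-RANK+ TECs, with a log2 fold change of -1.70 ± 0.11 (adjusted p = 1.86e-06) against CCL21+RANK- TECs. *Edar*, the ectodysplasin receptor of skin appendages, had a log2 fold change of -1.80 ± 0.26 (adjusted p = 0.000334). *Tnfrsf22*, a decoy receptor for TRAIL, one of -1.49 ± 0.23 (adjusted p = 0.000446), and *Tnfrsf23* one of -0.12 ± 0.27 (adjusted p = 0.746). *Tnfrsf22* and *Tnfrsf23* are close paralogs, so their shares of ambiguous reads are uncertain. *Tnfrsf18* (GITR) had its highest level in CCL21-RANK- TECs, as *Tnfrsf19* did. It was at 6.13 and 7.5 RPKM there, 0.715, 0.414, and 0.583 RPKM in CCL21+RANK- TECs, against 1.6, 1.07, and 1.17 RPKM in CCL21-RANK+ TECs, with a log2 fold change of -3.57 ± 0.32 (adjusted p = 0.000223) in CCL21+RANK- against CCL21-RANK- TECs.

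**Figure D4:**
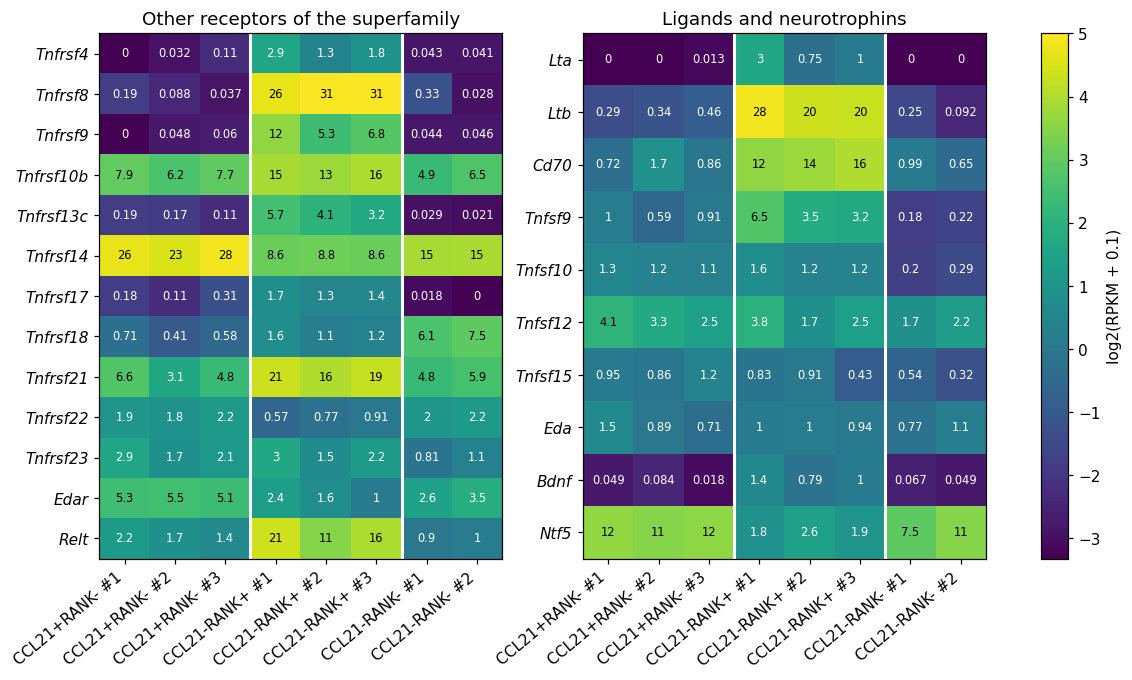
Heat maps of log2(RPKM + 0.1) in the 8 libraries for other receptors of the superfamily (left) and for ligands and neurotrophins (right) with a mean above 1 RPKM in a group; each cell prints its RPKM and white lines part the groups. *Tnfrsf8*, *Ltb*, and *Cd70* are bright only in the CCL21-RANK+ columns, *Tnfrsf14* and *Ntf5* are dimmest there, and *Tnfrsf18* is brightest in the CCL21-RANK- columns.

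Of the 22 ligands, 19 were tested, and 5 were called higher and 1 lower in CCL21-RANK+ TECs than in CCL21+RANK- TECs. Against CCL21-RANK- TECs 6 were higher and 1 lower, and between the RANK- groups 1 was higher in CCL21+RANK- TECs. The shares called were 31.6%, 36.8%, and 5.26% of the tested ligands, beside 30.9%, 29.5%, and 8.02% of all tested genes. Of the 10, 8, and 6 ligands above 1 RPKM in the higher group, 6, 7, and 1 were called, beside 48.9%, 47%, and 14.3% of all such genes. Without CCL21-RANK+ #1 the comparisons with CCL21-RANK+ TECs gave 4 and 5 called ligands. The median log2 fold changes were 2.82, 3.91, and 0.43, beside 0.11, 0.06, and 0 over all tested genes. They were the same with genes at 0 in a group set to their floor of 3 counts per library. *Tnfsf8*, *Tnfsf14*, and *Lta* had at most 1 count in each library outside CCL21-RANK+ TECs. Such genes passed the expression filter through that group, which raises the medians of its comparisons. *Lta* was also among the ligands called there, so no conclusion is drawn from these medians or counts. *Ltb*, which encodes the membrane anchor of lymphotoxin and so a ligand part for the lymphotoxin beta receptor, was at 28.5, 20.5, and 19.8 RPKM in CCL21-RANK+ TECs, 0.287, 0.344, and 0.455 RPKM for CCL21+RANK- TECs, against 0.254 and 0.0921 RPKM in CCL21-RANK- TECs. It was thus highest where *Ltbr* was lowest, with a log2 fold change of 5.86 ± 0.34 (adjusted p = 1.2e-06) against CCL21+RANK- TECs. Its partner *Lta* was at 3.04, 0.75, and 1.01 RPKM in CCL21-RANK+ TECs and had no count in CCL21-RANK- TECs. The level was highest in CCL21-RANK+ #1, without which the mean of *Lta* fell under 1 RPKM and it was no longer called. *Cd70*, the ligand of CD27, was at 12.3, 13.8, and 15.9 RPKM in CCL21-RANK+ TECs and at most 1.73 RPKM elsewhere, with a log2 fold change of 3.54 ± 0.42 (adjusted p = 8.18e-05). *Tnfsf9*, the ligand of 4-1BB, rose by 2.25 ± 0.37 (adjusted p = 0.000735) alongside its receptor gene. The exons of *Tnfsf9* overlap those of *Gm11110* on the other strand. Of the 11 immune markers, some from cells known to express *Ltb* and *Cd70*, *Lck*, *Cd4*, and *Csf1r* were called higher in CCL21-RANK+ TECs against CCL21+RANK- TECs, with levels there of up to 4.34, 4.11, and 1.74 RPKM. The most abundant, *Rag1*, reached 6.31 RPKM and was not called in that comparison. The part of such cells in the levels of *Ltb* and *Cd70* was not tested.

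*Tnfsf11*, which encodes RANK ligand, was between 0.428 and 0.565 RPKM in CCL21-RANK+ TECs and at most 0.137 RPKM in the other libraries, so it was not above 1 RPKM in any group. *Tnf* was at most 0.596 RPKM, *Fasl* at most 0.0824 RPKM, and *Cd40lg* at most 0.0348 RPKM. Each of these ligand genes was thus below 1 RPKM in every library. *Tnfsf12* (TWEAK), the ligand of FN14, was at 1.7 to 4.13 RPKM in all libraries, with a log2 fold change of -0.46 ± 0.33 (adjusted p = 0.274) between CCL21-RANK+ and CCL21+RANK- TECs, but its exons overlap those of *Tnfsfm13* on the same strand. *Tnfsf10* (TRAIL) was lower in CCL21-RANK- TECs, at 0.197 and 0.286 RPKM against 1.3, 1.2, and 1.14 RPKM in CCL21+RANK- TECs (adjusted p = 0.000999). *Tnfsf15* and *Eda* were called in no comparison.

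The 19 adaptors moved in both directions. Between CCL21-RANK+ and CCL21+RANK- TECs 5 were higher and 7 lower, with a median log2 fold change of -0.10. Against CCL21-RANK- TECs 6 were higher and 7 lower with a median of 0.07, and between the RANK- groups 1 was higher with a median of 0.25. The shares called were 63.2%, 68.4%, and 5.26% of the adaptors, beside 30.9%, 29.5%, and 8.02% of all tested genes. All 19 adaptors were above 1 RPKM in the comparisons with CCL21-RANK+ TECs, where 48.9% and 47% of such genes were called. *Birc3*, which encodes the ubiquitin ligase cIAP2, was at 66.2, 50.6, and 53 RPKM in CCL21-RANK+ TECs, 21.9, 19.8, and 22.4 RPKM for CCL21+RANK- TECs, against 16.1 and 15.4 RPKM in CCL21-RANK- TECs. It was 1.28 ± 0.11 higher (adjusted p = 8.86e-06) in CCL21-RANK+ TECs than in CCL21+RANK- TECs. *Traf1* rose by 2.39 ± 0.31 (adjusted p = 0.00014), *Tank* by 1.75 ± 0.15 (adjusted p = 9.14e-06), and *Traf6*, an adaptor that RANK and CD40 bind directly, by 1.09 ± 0.10 (adjusted p = 1.66e-05). The lower adaptors included *Traf5* (-1.82 ± 0.19, adjusted p = 3.36e-05), *Edaradd*, the adaptor of EDAR (-1.63 ± 0.23, adjusted p = 0.000279), and *Traf3* (-1.04 ± 0.11, adjusted p = 4.14e-05). *Map3k14*, which encodes NIK, was at 9.57, 5, and 6.12 RPKM in CCL21-RANK+ TECs, against 13.5, 14.2, and 13.9 RPKM in CCL21+RANK- TECs (-1.15 ± 0.18, adjusted p = 0.000578). *Traf3* and NIK work against each other in the alternative NF-kB pathway, where TRAF3 marks NIK for degradation, and each was lower in CCL21-RANK+ TECs. *Nsmaf*, an adaptor of TNFR1, was lower, with a log2 fold change of -1.21 ± 0.11 (adjusted p = 1.15e-05), in the direction of *Tnfrsf1a*, but its exons overlap those of *Sdcbp* on the other strand. *Bex3* and *Maged1*, which encode p75 binding proteins, were the most abundant of the list, with means over all libraries of 96.4 and 99.6 RPKM, and both were lower in CCL21-RANK+ TECs, as *Ngfr* was, with log2 fold changes of -0.91 ± 0.14 and -0.73 ± 0.12.

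Among 8 genes of NF-kB activity and its feedback, 4 were higher and 1 lower in CCL21-RANK+ TECs than in CCL21+RANK- TECs, with a median log2 fold change of 0.50. Against CCL21-RANK- TECs 5 were higher with a median of 0.95, and between the RANK- groups 2 were higher in CCL21+RANK- TECs with a median of 0.46. The shares called were 62.5%, 62.5%, and 25% of these 8 genes, beside 30.9%, 29.5%, and 8.02% of all tested genes and 48.9%, 47%, and 14.3% of those above 1 RPKM, as all 8 were. *Nfkbia* was at 304, 222, and 261 RPKM in CCL21-RANK+ TECs, 128, 94.9, and 118 RPKM for CCL21+RANK- TECs, against 74.4 and 90.4 RPKM in CCL21-RANK- TECs. It encodes the inhibitor IkB-alpha, itself a target of NF-kB, and it was 1.08 ± 0.12 higher (adjusted p = 6.83e-05) in CCL21-RANK+ TECs than in CCL21+RANK- TECs. *Nfkb2*, the precursor of p52, was at 148, 113, and 119 RPKM, 74.2, 72.1, and 79.3 RPKM, and 50.4 and 59.4 RPKM in the same order of groups. *Nfkbie* and *Tnip1* were also called higher. *Relb* was 0.39 ± 0.08 higher (adjusted p = 0.00368) in CCL21-RANK+ TECs than in CCL21+RANK- TECs, under the fold threshold, and was called against CCL21-RANK- TECs at 0.81 ± 0.10 (adjusted p = 0.000106). *Tnfaip3*, which encodes the NF-kB inhibitor A20, stood apart with 24.2, 17, and 16.4 RPKM in CCL21+RANK- TECs, 9.97, 10, and 9.37 RPKM for CCL21-RANK+ TECs, against 8.63 and 8.18 RPKM in CCL21-RANK- TECs. It was the only gene of this list called lower in CCL21-RANK+ TECs, with a log2 fold change of -1.10 ± 0.16 (adjusted p = 0.000316).

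**Figure D5:**
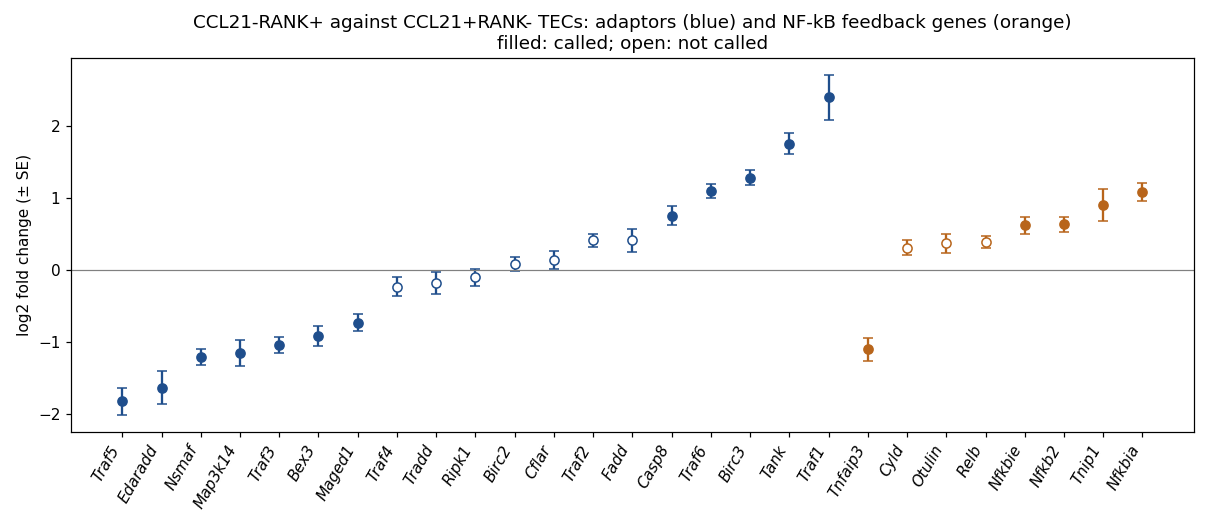
Log2 fold change (points) with standard error (bars) between CCL21-RANK+ and CCL21+RANK- TECs for 19 adaptor genes (blue) and 8 NF-kB feedback genes (orange), filled where called. The adaptors span both sides of 0, from *Traf5* at -1.82 to *Traf1* at 2.39, and *Tnfaip3* at -1.10 is the only feedback gene below 0.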

How the data were processed

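The values deposited by the authors were expected counts from RSEM in one table of 8 columns, all of which were used. The submitters' processing notes name bcl2fastq 2.20, Trimmomatic, STAR 2.5.1, and RSEM 1.3.1 with mm10, whereas the methods of the study name CLC Genomics Workbench. The notes and the methods also name different library kits. Whether counting used strand is not given in the sources used here, but no exon of the 10 receptors overlaps an exon of another annotated gene. Between 42751858 and 71625319 counts per library were deposited, and the edgeR coefficient of biological variation was 0.326, so that the spread between libraries exceeded counting error for expressed genes. The noncoding *Gm26917* made up 6.89% to 19.4% of the counts and *Gm42418* made up 1.47% to 10.7%, which lowers the RPKM of other genes. Reads are not molecules, so a floor of 3 counts covers counting error only. Gene positions and exon lengths came from GENCODE M21 (GRCm38).

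Rounded counts were fitted with edgeR 4.0.16 in R 4.3.3 (TMM, filterByExpr, quasi-likelihood, Benjamini-Hochberg over 21451 genes) in one model of 3 group means over 8 libraries. Standard errors were derived from the F statistic. RPKM used the library total and the summed exon length. Log2 CPM used a prior count of 2. Named genes were the 10 receptors, other receptors and ligands above 1 RPKM in a group, and from other lists the 3 most abundant genes and the 2 largest called changes in each direction, of which the text gives a part. A few ligands and adaptors below these limits were named after their values were seen. Some genes of the lists are not reported here. The members and lists were chosen with earlier results of these data known. Fits were tested on simulated data. Alternatives included DESeq2 1.42.0. Figures were drawn with matplotlib 3.10.9.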

Additional observations from a re-analysis of the deposited data

How the results depend on the processing

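The count of receptors called in CCL21-RANK+ TECs was 8 or 9 against CCL21+RANK- TECs and 9 or 10 against CCL21-RANK- TECs under every alternative run (other scalings, DESeq2, other filters, only the libraries compared, the replicate block, other thresholds, without *Gm26917* and *Gm42418*, and each library left out). Between the RANK- groups it ranged from 4 to 6 when a CCL21+RANK- or CCL21-RANK+ library was left out, and it was lower without either CCL21-RANK- library. Every fit without a CCL21-RANK- library left 1 library in that group, so the spread came from the other groups. With libraries left out, *Tnfrsf12a* ranged from -1 to 0.12 between CCL21-RANK+ and CCL21+RANK- TECs (0.12 without CCL21+RANK- #1), and between the RANK- groups *Tnfrsf11b* ranged from -1.01 to 0.26 and *Tnfrsf1a* from -0.08 to 0.15 (0.26 and -0.08 without CCL21-RANK- #1). None of these 3 was called in these comparisons in the main analysis or with a library left out. Over all genes, requiring only the adjusted p-value gave 11516 calls between CCL21-RANK+ and CCL21+RANK- TECs and 10501 against CCL21-RANK- TECs. Between the RANK- groups a fold over 2 gave 1030 calls, and leaving out libraries gave 657 to 2066. RLE scaling moved the median log2 fold change of all genes from 0.062 to 0.199 between CCL21-RANK+ and CCL21-RANK- TECs, and no called receptor changed direction.

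The small counts of the lists varied more. A minimum of 10 counts in every library gave 7 other receptors in both comparisons with CCL21-RANK+ TECs. The adjusted p-value alone gave 11 and 14 ligands in these comparisons, and 8 feedback genes in the first, where a fold over 2 gave 2. Between the RANK- groups, DESeq2, no filter, only the libraries compared, and the adjusted p-value alone each gave 5 other receptors; DESeq2, only the libraries compared, no *Gm26917* and *Gm42418*, and the adjusted p-value alone gave 2 ligands. There the adjusted p-value alone gave 2 adaptors and 4 feedback genes, and a fold over 2 gave 0 adaptors. Leaving out libraries there gave up to 5 other receptors, 1 adaptor, and 3 feedback genes. The lowest counts came without CCL21-RANK- #2, a fit with 1 library in that group. The cause was not tested.

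With the replicate number as a block, 5 other receptors were called between the RANK- groups, and *Tnfrsf12a* was called at 1.97 in CCL21+RANK- TECs (adjusted p = 0.0227) and 1.53 in CCL21-RANK+ TECs (adjusted p = 0.0228) against CCL21-RANK- TECs. The correlations of deviations between same-numbered libraries were 0.126, 0.0485, and 0.0707 for the CCL21+RANK- and CCL21-RANK+ groups, where every library correlated best with its own number, a hint from the data only. They were -0.0528 and -0.117 for CCL21+RANK- with CCL21-RANK- TECs, and -0.0519 and -0.0411 for CCL21-RANK+ with CCL21-RANK- TECs. There, deviations within the group of 2 libraries mirror each other, so each value recurs with the opposite sign for the other library. All of these same-number values were negative, unlike those of the first pair of groups. The numbers were not taken to pair the samples, since the correlations were low or negative and no label says that they do. No other receptor call changed with the block.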

Other observations

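Of the genes known to act with p75, 3 are described. *Rtn4r*, the Nogo receptor, was at 4.88, 2.61, and 3.44 RPKM in CCL21-RANK+ TECs and at most 0.224 RPKM elsewhere, with a log2 fold change of 4.32 ± 0.47 (adjusted p = 4.97e-05) against CCL21+RANK- TECs. *Sorcs2* was lower there, with a log2 fold change of -0.77 ± 0.12 (adjusted p = 0.000443), in the direction of *Ngfr*. *Sort1*, which encodes the p75 partner sortilin, was 8.99, 7.99, and 9.42 RPKM in CCL21+RANK- TECs against 14 and 14.8 RPKM in CCL21-RANK- TECs, with a log2 fold change of -0.72 ± 0.10 (adjusted p = 0.00189).

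Among the neurotrophins, *Ntf5* was at 12.4, 11.2, and 12 RPKM in CCL21+RANK- TECs, 7.47 and 11.1 RPKM for CCL21-RANK- TECs, against 1.76, 2.64, and 1.92 RPKM in CCL21-RANK+ TECs. It was lower in CCL21-RANK+ TECs, with a log2 fold change of -2.61 ± 0.20 against CCL21+RANK- TECs (adjusted p = 5.85e-06), whereas *Bdnf* rose by 4.25 ± 0.57 (adjusted p = 0.000185) to 1.39, 0.792, and 1 RPKM, a call that was lost without CCL21-RANK+ #1, where its mean fell under 1 RPKM. The sheddase *Adam17*, which cleaves TNF receptors from the membrane, was at 19.6, 14.3, and 14.5 RPKM in CCL21-RANK+ TECs against 10.5, 8.58, and 9.58 RPKM in CCL21+RANK- TECs, a log2 difference of 0.63 ± 0.12 (adjusted p = 0.00165). The exons of *Adam17* overlap those of *Iah1* on the other strand. *Adam10* was 0.53 ± 0.09 higher (adjusted p = 0.000594), under the fold threshold.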
